A study of Mus musculus with 6 samples.

Results

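The genes described here are those of the mouse MHC class II pathway: H2-Aa, H2-Ab1, H2-Eb1, H2-DMa, H2-DMb1, H2-Oa, H2-Ob, Cd74 and Ciita. Members were the probe sets that the array annotation assigns to exactly 1 gene symbol, that symbol being 1 of these 9. In this way 7 of the 9 genes were represented, by 11 of 22626 mouse probe sets, among 12393 genes with a probe set of their own. H2-DMb1 and H2-Ob had no such probe set and were seen only through 3 probe sets shared with other genes.

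Lungs of Igf1-/- embryos, which carry a null allele of the insulin-like growth factor 1 gene on both chromosomes in every tissue, were compared with lungs of Igf1+/+ embryos at embryonic day 18.5, with 3 arrays per genotype. The parents were Igf1+/- mice on the inbred C57BL/6J background. According to the paper's methods, pups of this age were delivered early by C-section and helped to breathe before their lungs were taken. No other treatment is named for the embryos. The design text of the series speaks of pooled lungs. The sample labels and the paper speak of 3 biological replicates per genotype, and the methods of separate RNA samples. Each array is therefore called a replicate here without settling how many embryos it stands for, and p values measure the spread between these samples only. Expression is given as the deposited RMA value, a normalised hybridisation signal on a log2 scale. A difference is the Igf1-/- mean minus the Igf1+/+ mean on that scale.

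Class II molecules display peptides from endosomes to CD4 T cells. Each is a pair of an alpha and a beta chain, such as those encoded by H2-Aa and H2-Ab1. Cd74, the invariant chain, holds new pairs together and guides them to the endosome, where the H2-DM pair (H2-DMa with H2-DMb1 or H2-DMb2) exchanges a fragment of Cd74 for antigenic peptide and the H2-O pair (H2-Oa with H2-Ob) restrains H2-DM. Ciita is the coactivator that switches these genes on together. It binds no DNA itself but sits on the RFX, CREB and NF-Y factors bound to neighbouring X and Y boxes upstream of each gene. Dendritic cells, B cells and activated macrophages are the classical carriers of class II molecules, and alveolar type II cells of the adult lung express them too.

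The stretches upstream of the members are shown because the X and Y boxes are what these genes are known to have in common. Promoter sequences of 250 bases before and 50 bases after the start were taken from RefSeq (build GRCm38.p6), which gave windows for 6 members. H2-Ab1 and Ciita are named only, and Cd74 was not used here. Capitals mark GNAAC, the core of the X box, and TGATTGG, the letters of the Y box, the latter lying 15 to 30 bases downstream. Both motifs were searched on both strands, and their letters were chosen after the sequences of the members had been seen. Each run below ends at the base before the start and is written 5′ to 3′ on the strand of the gene.
H2-Aa: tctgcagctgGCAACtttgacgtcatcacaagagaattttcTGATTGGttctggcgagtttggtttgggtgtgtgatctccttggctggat
H2-Eb1: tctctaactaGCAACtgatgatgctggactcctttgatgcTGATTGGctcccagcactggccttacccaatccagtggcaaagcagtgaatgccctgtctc
H2-DMb1: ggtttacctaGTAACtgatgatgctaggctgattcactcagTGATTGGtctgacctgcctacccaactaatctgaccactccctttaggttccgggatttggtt
H2-Oa: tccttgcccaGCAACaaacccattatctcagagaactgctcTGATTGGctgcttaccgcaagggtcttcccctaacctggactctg
H2-Ob: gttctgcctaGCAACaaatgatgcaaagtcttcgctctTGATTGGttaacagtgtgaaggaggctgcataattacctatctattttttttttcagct

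These stretches lie on chromosome 17 at chr17:34287824-34287914 (minus strand) for H2-Aa and, on the plus strand, at chr17:34305766-34305866 for H2-Eb1, chr17:34153087-34153190 for H2-DMb1, chr17:34092293-34092378 for H2-Oa and chr17:34238808-34238904 for H2-Ob. The gap between the motifs was 26 bases for H2-Aa, H2-DMb1 and H2-Oa, 25 for H2-Eb1 and 23 for H2-Ob. Thus 5 of the 7 windows of these members held the pair of motifs in this order, against 154 of 32851 windows of all genes (0.469%), for letters taken from the members themselves. The Y box letters alone were in 2568 windows (7.82%). The remaining member, H2-DMa, held neither TGATTGG nor the pair in its 2 windows, which says only that this run of letters is absent there. A match is a description of the sequence and not a measured binding site.

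Samples were first checked against their labels. Igf1 itself had values of 6.15, 6.33 and 6.46 in Igf1-/- lungs, against 6.59, 7.12 and 6.97 in Igf1+/+ lungs, at the probe set whose genotypes did not overlap (1419519_at; difference -0.58, SE 0.14, limma adjusted p = 0.152). The other 2 Igf1 probe sets differed by -0.51 and -0.42, with overlapping genotypes. The place of these probes relative to the inactivated segment was not examined here. Lung identity was clear from Sftpc, the surfactant protein C gene, whose brightest probe set ran from 14.37 to 14.47 where the highest value of any probe set was 14.6. Xist, which is transcribed from the inactive X chromosome, had values of 7.09, 12.22 and 12.19 in Igf1-/- lungs and of 12.1, 12.19 and 3.5 in Igf1+/+ lungs. Eif2s3y, a Y-linked gene, read 7.5, 3.48 and 3.53 in Igf1-/- lungs and 3.46, 3.48 and 7.95 in Igf1+/+ lungs. Igf1-/- replicate 1 and Igf1+/+ replicate 3 therefore differed from the other 4 arrays in sex-linked transcripts, and Igf1-/- replicate 1 had an intermediate Xist value. Class II values are given below with and without these arrays.

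Genes of the class II chains, of Cd74 and of H2-DMa were higher in Igf1-/- lungs, by 1.19- to 1.58-fold, whereas Ciita and H2-Oa showed no difference that these arrays could resolve. The mean was higher at 9 of 11 probe sets, where 58.2% of all probe sets were higher. At 8 probe sets, of 5 genes, all 3 Igf1-/- values lay above all 3 Igf1+/+ values, as they did at 10.8% of all probe sets. The same 8 had an unadjusted p under 0.05 and a higher mean, which 6.27% of all probe sets had, and none was lower at that level. Several probe sets of 1 gene are not independent. The members were chosen with earlier results of these data known, and the paper lists H2-Aa, H2-Eb1 and H2-DMa as up-regulated on the same arrays. The shares over all probe sets are therefore given for scale and test nothing. The median difference was 0.35 over the 11 probe sets and 0.03 over all probe sets. No member was below an adjusted p of 0.10 (limma, Benjamini-Hochberg over 22626 probe sets), a level reached by 126 probe sets in all (0.557%). At the broader level of 0.20, 5 member probe sets of 4 genes were counted, all higher, against a background of 0.981%. The smallest p that an exact permutation test can give for 3 against 3 arrays is 0.1 (two-sided). More cells of a class II-bearing type and more class II mRNA per cell cannot be told apart in whole lungs.

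**Figure D1:**
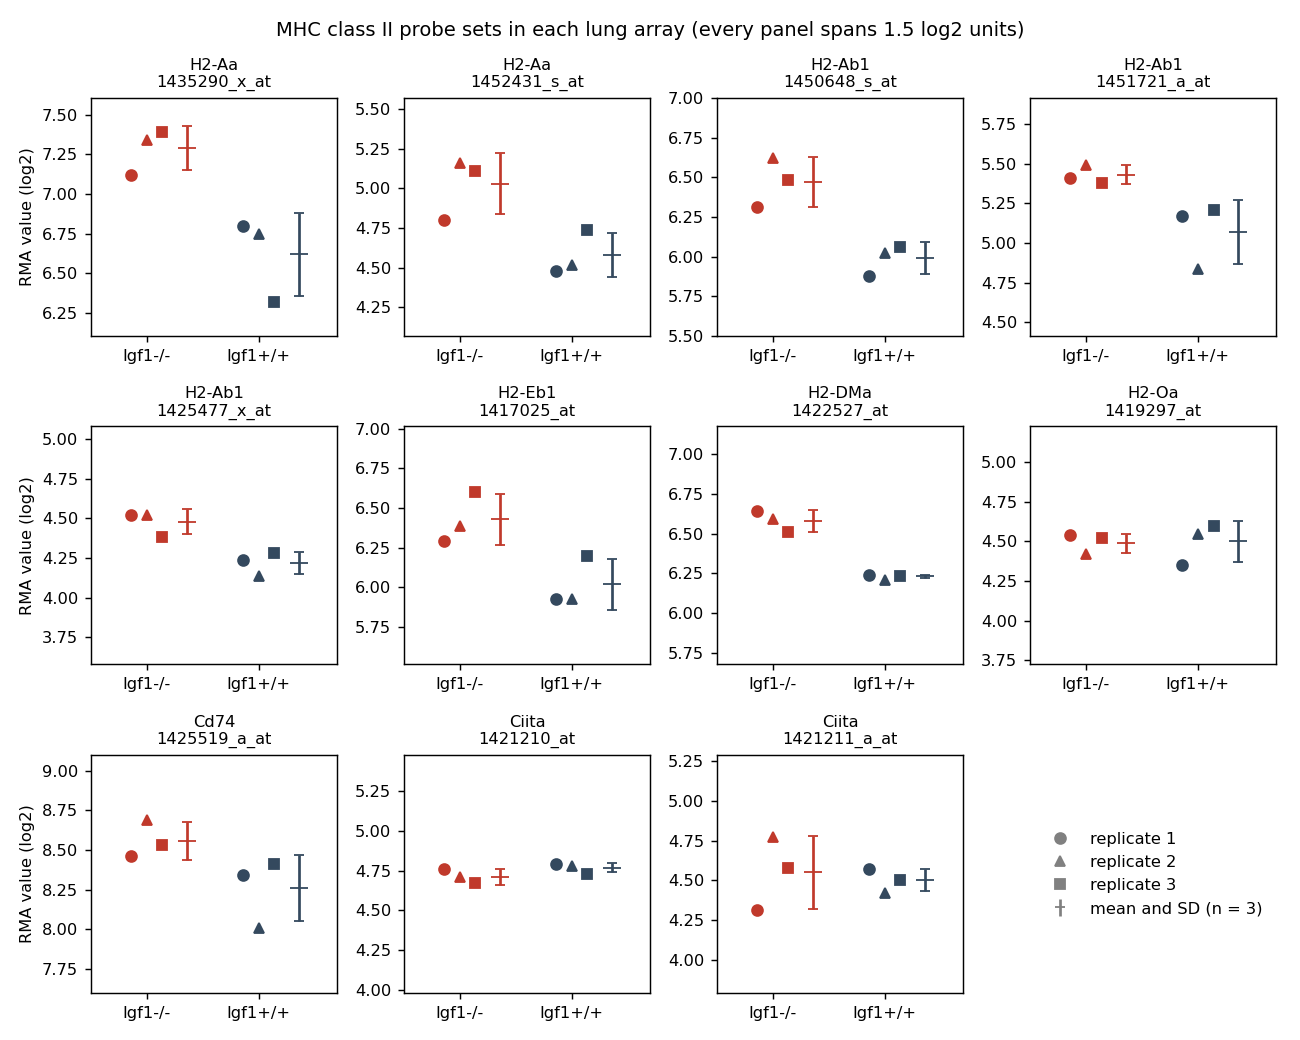
RMA values (log2, y axis) of the 11 class II probe sets in each array, Igf1-/- in red and Igf1+/+ in blue, with the mean and SD (n = 3) beside the points and every panel spanning the same height. The genotypes are separate in 8 panels and overlap for H2-Oa and both Ciita probe sets.

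Among the genes of the classical chains, H2-Aa, the alpha chain of H2-A, showed the widest difference. At 1435290_x_at its values were 7.12, 7.34 and 7.39 in Igf1-/- lungs, against 6.8, 6.75 and 6.32 in Igf1+/+ lungs, a difference of 0.66 (SE 0.13, 1.58-fold, limma adjusted p = 0.107). Every Igf1-/- array exceeded every Igf1+/+ array by at least 0.32. The second H2-Aa probe set, 1452431_s_at, had 4.8, 5.16 and 5.11 in Igf1-/- lungs, against 4.48, 4.52 and 4.74 in Igf1+/+ lungs (difference 0.44, SE 0.11, adjusted p = 0.18). Here the genotypes were separated by only 0.06, between replicate 1 of Igf1-/- and replicate 3 of Igf1+/+. The probe sets thus ranked the Igf1+/+ arrays differently, replicate 3 being the lowest at 1435290_x_at and the highest at 1452431_s_at. The suffixes _x_at and _s_at mark probes that may also bind other transcripts, and values of different probe sets are not compared as amounts of mRNA.

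H2-Ab1, the beta chain that pairs with H2-Aa, had 3 probe sets, and all separated the genotypes. The values at 1450648_s_at were 6.31, 6.62 and 6.48 in Igf1-/- lungs, against 5.88, 6.02 and 6.06 in Igf1+/+ lungs (difference 0.48, SE 0.10, 1.40-fold, adjusted p = 0.109). Those at 1451721_a_at were 5.41, 5.49 and 5.38 in Igf1-/- lungs, against 5.17, 4.84 and 5.21 in Igf1+/+ lungs (0.35, SE 0.11, adjusted p = 0.242). The dimmest, 1425477_x_at, read 4.52, 4.52 and 4.38 in Igf1-/- lungs, against 4.24, 4.14 and 4.28 in Igf1+/+ lungs (0.26, SE 0.08, 1.19-fold, adjusted p = 0.243). In the last 2 probe sets the Igf1+/+ low was replicate 2, whereas in the first it was replicate 1.

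H2-Eb1 encodes the beta chain of H2-E, the second classical class II molecule. Its values were 6.29, 6.39 and 6.6 in Igf1-/- lungs, against 5.93, 5.93 and 6.2 in Igf1+/+ lungs (difference 0.41, SE 0.11, 1.33-fold, adjusted p = 0.194). The highest Igf1+/+ array, replicate 3, lay 0.09 below the lowest Igf1-/- array, replicate 1. H2-Ea, the alpha chain of H2-E and no member here, lacks a working promoter in C57BL/6 mice. Its 3 probe sets differed by 0.15, 0.03 and -0.03, each with overlapping genotypes, with values of 6.52 to 6.85 on every array at 1422891_at and of 3.56 to 3.98 at the other 2.

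Cd74, the invariant chain, was seen at the brightest of the member probe sets. It gave 8.46, 8.69 and 8.53 in Igf1-/- lungs, against 8.34, 8.01 and 8.41 in Igf1+/+ lungs (difference 0.30, SE 0.12, 1.23-fold, adjusted p = 0.338). The genotypes were separate by only 0.04, and Igf1+/+ replicate 2 lay well under the other 2 Igf1+/+ arrays. Without that replicate the difference was 0.18.

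In the peptide-loading step, H2-DMa had little spread, with 6.64, 6.59 and 6.51 in Igf1-/- lungs, against 6.24, 6.21 and 6.23 in Igf1+/+ lungs (difference 0.35, SE 0.07, 1.28-fold, adjusted p = 0.108). The gap between the genotypes was 0.28, whereas the SD within a genotype was 0.07 (Igf1-/-) and 0.01 (Igf1+/+). Its partner H2-DMb1 shares its probe sets with the near-identical H2-DMb2, so the gene of origin is uncertain. The shared 1449580_s_at read 6.69, 6.7 and 6.58 in Igf1-/- lungs, against 6.43, 6.27 and 6.55 in Igf1+/+ lungs (0.24, SE 0.09, adjusted p = 0.331), again without overlap but by 0.03. The second shared probe set, 1418638_at, and the one assigned to H2-DMb2 alone, 1419744_at, differed by 0.09 (SE 0.14) and 0.07 (SE 0.07).

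H2-Oa, the alpha chain of the H2-DM inhibitor H2-O, showed no resolvable difference. Its values were 4.54, 4.42 and 4.52 in Igf1-/- lungs, against 4.35, 4.55 and 4.6 in Igf1+/+ lungs, a difference of -0.01 with a 95% interval from -0.21 to 0.19 (adjusted p = 0.981). The arrays of both genotypes were interleaved. The H2-Oa promoter printed above carries the same pair of motifs as those of H2-Aa and H2-Eb1, and how the motifs relate to expression was not tested. The probe set shared by H2-Ob, the beta chain of H2-O, with Gm20506 read 5.05, 4.91 and 5.01 in Igf1-/- lungs, against 4.84, 4.99 and 4.81 in Igf1+/+ lungs (0.11, SE 0.08, adjusted p = 0.612). Whether H2-Oa differed from H2-DMa in its response was not tested.

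Ciita, the coactivator, was dim at both of its probe sets, and on every array it lay under 4.93, the lower quartile of the mean value over all probe sets. It had 4.76, 4.71 and 4.67 at 1421210_at in Igf1-/- lungs, against 4.79, 4.78 and 4.73 in Igf1+/+ lungs (difference -0.05, 95% interval -0.21 to 0.11, adjusted p = 0.784). At 1421211_a_at it had 4.31, 4.77 and 4.58 in Igf1-/- lungs, against 4.57, 4.42 and 4.5 in Igf1+/+ lungs (0.06, interval -0.20 to 0.32, adjusted p = 0.865). The first interval ends below 0.26, the smallest difference among the 8 separated class II probe sets, whereas the second reaches past it. H2-Oa was under the same quartile on all 6 arrays, and so was H2-Ab1 at 1425477_x_at, where the genotypes were separate. Whether low signal hid a difference in Ciita or H2-Oa was not tested.

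**Figure D2:**
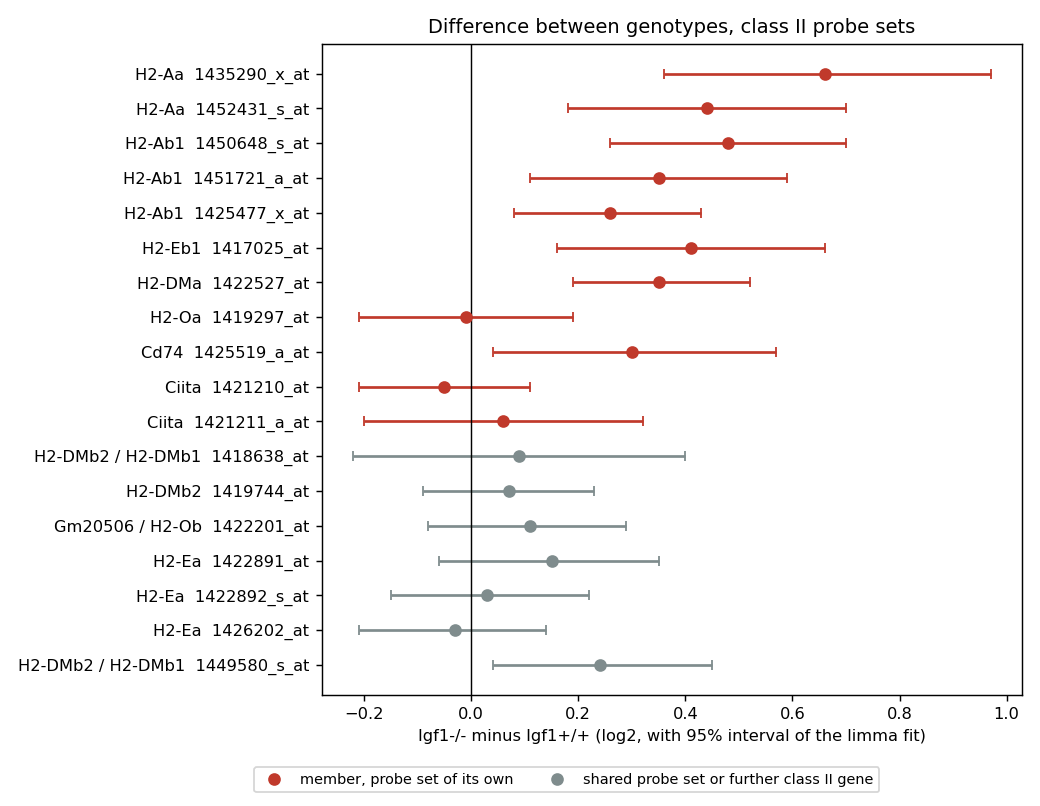
Differences between Igf1-/- and Igf1+/+ lungs (log2, x axis, with the 95% interval of the limma fit) for the 11 member probe sets in red and for shared or further class II probe sets in grey. The intervals of 8 member probe sets lie above 0, from H2-Aa (0.66) to H2-Ab1 (0.26), while those of H2-Oa and Ciita span 0.

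A class II profile was formed from H2-Aa, H2-Ab1, H2-Eb1 and Cd74, without H2-DMa. Their probe sets were centred on their own means, averaged within each gene and then averaged over these genes. This class II profile was 0.08, 0.27 and 0.25 in Igf1-/- lungs, against -0.19, -0.30 and -0.11 in Igf1+/+ lungs. Among the 8 probe sets with separate genotypes, Igf1-/- replicate 1 was the lowest array of its genotype at 5. Igf1+/+ replicate 3 was the highest of its genotype at 6, and these replicates were the arrays with Y-linked transcripts. Since every Igf1-/- value of these 8 exceeds every Igf1+/+ value, their direction within any part of the arrays is fixed, and only the sizes are informative. The differences were 0.26 to 0.64 between the 4 arrays with high Xist, and 0.04 (Cd74) to 0.80 (H2-Aa at 1435290_x_at) between the pair with Y-linked transcripts, 1 array per genotype. The other members had 0.02 (H2-Oa) and -0.10 and 0.18 (Ciita) in the first set of arrays, and -0.06 (H2-Oa) and 0.03 and -0.19 (Ciita) in the second. With this split of the arrays as a block, that H2-Aa probe set had an adjusted p of 0.0286 and was the only member under 0.10. The counts depended on single arrays: without Igf1+/+ replicate 3, 5 member probe sets were under an adjusted p of 0.10, and without Igf1-/- replicate 2 or 3, none was under 0.20.

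Probe sets of other genes were ranked by how closely they followed this profile over the 6 arrays, as the mean absolute difference on the log2 scale. The closest was Cd5l, a secreted scavenger receptor-like protein of macrophages, at 0.029. It had 5.2, 5.35 and 5.34 in Igf1-/- lungs, against 4.82, 4.8 and 4.93 in Igf1+/+ lungs (difference 0.44). Next came Pou3f4 (0.036), a POU transcription factor, Neurl1a (0.0425), a ubiquitin ligase, Ldhb (0.0433), a lactate dehydrogenase chain, Acsm1 (0.0438), an acyl-CoA synthetase, Wdr75 (0.0464), a nucleolar protein, Cyp2a12 (0.0465), a cytochrome P450, and Sfrp1 (0.0467), a secreted Wnt antagonist. The member probe sets that made up the profile were themselves between 0.0709 and 0.172 from it, H2-Oa and Ciita between 0.175 and 0.23, and the median probe set 0.201. The profile is itself higher in Igf1-/- lungs, so probe sets close to it are higher there by selection. With 6 arrays and all other probe sets as candidates, this ranking is a description only.

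Between H2-Oa and H2-Eb1, RefSeq places 14 genes on chromosome 17, of which 11 had a probe set of their own: 5 members and 6 others. The others include the peptide transporter genes Tap1 and Tap2 and the immunoproteasome genes Psmb8 and Psmb9, which serve MHC class I, and Brd2, a chromatin reader. Their differences were -0.14 (Tap1), -0.05 (Tap2), 0.00 (Psmb8), 0.01 (Psmb9), 0.11 (Brd2) and 0.07 (H2-DMb2), and none had an unadjusted p under 0.05. The Igf1-/- values were all above the Igf1+/+ values at 2 of these 6 genes and at 4 of the 5 members, where 11.9% of all genes at their brightest probe set showed this. The set of neighbours was drawn up after the values were seen, and members and neighbours were not tested against each other.

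**Figure D3:**
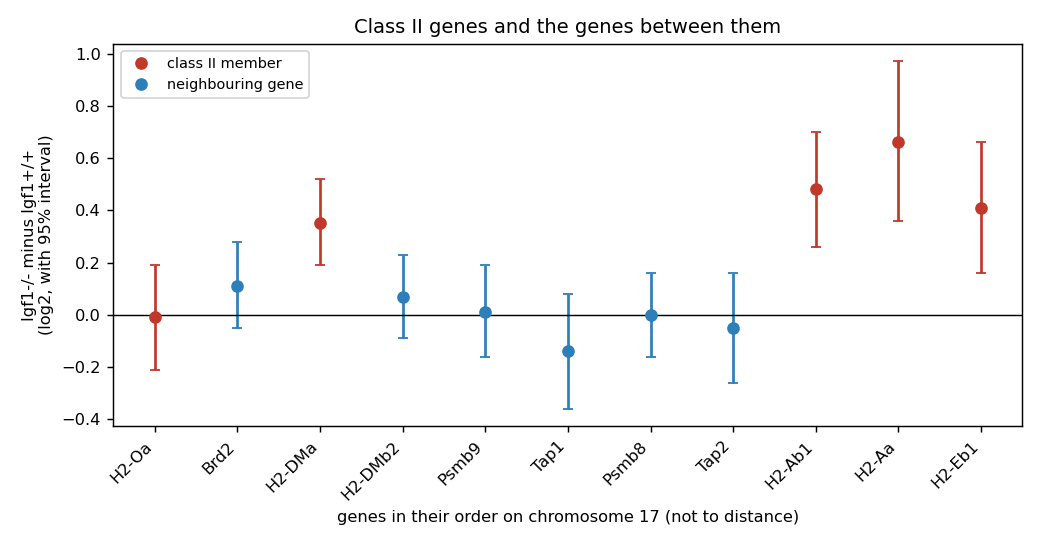
Difference between Igf1-/- and Igf1+/+ lungs (log2, y axis, with 95% interval) at the brightest probe set of each gene, in the RefSeq order along chromosome 17 and not to distance. Members H2-DMa, H2-Ab1, H2-Aa and H2-Eb1 lie between 0.35 and 0.66, the member H2-Oa at -0.01, and the 6 neighbours between -0.14 and 0.11.

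Factors that act on the class II promoters were then examined, each gene at its brightest probe set. At that probe set, 60.6% of all genes were higher in Igf1-/- lungs, 7.04% were higher and 5.66% lower with an unadjusted p under 0.05, and 0.597% had an adjusted p under 0.10 in either direction. All 7 genes of the RFX, NF-Y and CREB factors were measured, 5 were higher and 2 lower, and none reached an unadjusted p of 0.05 (median 0.06). Nfyc, the brightest of these genes, had 9.25, 9.17 and 9.19 in Igf1-/- lungs, against 9.19, 9.17 and 9.09 in Igf1+/+ lungs. Of 12 measured genes upstream of Ciita, among them the interferon gamma pathway, 6 were higher and 6 lower, again with none at an unadjusted p of 0.05 (median 0.03). Ifng, the interferon gamma gene itself, stayed between 3.65 and 3.96 on all arrays. Jak1 and Irf1, which carry the interferon signal, differed by 0.09 and 0.10 at their brightest probe sets. The other Jak1 probe sets disagreed, 1433803_at with 0.16 and 1433804_at with -0.50 (5.93, 6.2 and 5.99 in Igf1-/- lungs, against 6.79, 6.31 and 6.53 in Igf1+/+ lungs, adjusted p = 0.179), and 1433804_at was the only one of the 2 lists with an unadjusted p under 0.05.

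Genes that work beside class II molecules gave small differences at their brightest probe sets. Of 8 genes of endosomal processing, 6 were higher and 2 lower, with a median of 0.10. Ctsh and Ctsb, lysosomal cathepsins, differed by 0.04 and 0.09 (Ctsb by -0.14 to 0.20 at its other probe sets), and the cathepsin inhibitor Cst3 by 0.16. All 7 measured genes of costimulation and of class II partners were higher (median 0.13), and the 8 MHC class I genes were split into 5 higher and 3 lower (median 0.01). None of these 23 genes had an unadjusted p under 0.05 at its brightest probe set. At dimmer probe sets 4 of them did, all higher: Cd4 (0.29) and Cd86 (0.24) among the partners, and H2-K1 (0.25) and H2-D1 (0.33 and 0.22) of class I. The 3 lists had 11, 14 and 24 probe sets. Of these, 5 were higher at that level, where 6.27% of all probe sets were.

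Markers of cells that could carry class II molecules were compared in the same arrays, again at the brightest probe set of each gene unless another is named. Among these, pan-leukocyte genes had the widest differences: 7 of 9 were higher, 6 with an unadjusted p under 0.05, and their median was 0.29. Cd52, a surface glycoprotein of leukocytes, rose to 8.59, 8.5 and 8.46 in Igf1-/- lungs, against 7.95, 8.13 and 8.04 in Igf1+/+ lungs (0.47, adjusted p = 0.0665). Rac2, which encodes a haematopoietic GTPase, rose to 8.01, 8.11 and 7.9 in Igf1-/- lungs, against 7.42, 7.54 and 7.59 in Igf1+/+ lungs (0.49, adjusted p = 0.0695). Laptm5 and Lcp1, also pan-leukocyte, differed by -0.01 and -0.05 at their brightest probe sets, but Laptm5 by 0.22 at each of its other 2 probe sets and Lcp1 by 0.06 at its second. The mean over the 9 genes ran from 8.09 to 8.25 in Igf1-/- lungs and from 7.82 to 7.97 in Igf1+/+ lungs, without overlap, as did the mean over the 7 class II genes (6.30 to 6.40 in Igf1-/- lungs, 6.04 to 6.08 in Igf1+/+ lungs). Within Igf1-/- lungs, replicate 1 was the highest for the pan-leukocyte genes and the lowest for the class II genes. The part of leukocyte number in the class II difference was not tested.

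Markers of single cell types gave smaller values. Of 13 macrophage and monocyte genes, 10 were higher and 4 reached an unadjusted p of 0.05, all higher (median 0.15), and their mean ran from 7.66 to 7.80 in Igf1-/- lungs and from 7.60 to 7.64 in Igf1+/+ lungs. The complement genes C1qa and C1qb and the receptor gene Csf1r differed by 0.38, 0.35 and 0.32, and C1qb by 0.13 and -0.05 at its 2 dimmer probe sets, whereas Lyz2, lysozyme, differed by -0.33. All 8 measured B cell genes were higher, 2 with an unadjusted p under 0.05 (Igll1 by 0.27 and Cd22 by 0.21), with means from 5.27 to 5.32 in Igf1-/- lungs and from 5.09 to 5.22 in Igf1+/+ lungs. B cell Ms4a1 and Pax5 were dim, at 3.98 to 4.59 on all arrays. Of 11 dendritic cell genes, 9 were higher and 2 lower. Itgax, the CD11c gene, differed by 0.24 and Fscn1, which bundles actin in mature dendritic cells but is not restricted to them, by -0.31 at its brightest probe set and by 0.32, 0.06 and -0.04 at the others, and the means over the list overlapped (5.52 to 5.58 in Igf1-/- lungs, 5.42 to 5.55 in Igf1+/+ lungs). No gene of these 3 lists had an adjusted p under 0.10, and their part in the class II difference was not tested.

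Alveolar type II cells and fragments of thymus or lymphoid tissue were checked as well. Of 9 alveolar type II genes, 7 were higher, 3 of them with an unadjusted p under 0.05. These 3 were Napsa (0.41, without overlap), Sftpb (0.30) and Sftpa1 (0.25, but 0.02 at its other probe set). Sftpd was lower at that level (-0.42). The mean over the 9 genes overlapped between genotypes, at 11.79 to 12.03 in Igf1-/- lungs and 11.71 to 11.91 in Igf1+/+ lungs. Of 9 thymus genes, 7 were higher, among which only Cd3e had an unadjusted p under 0.05 (0.30), and the list mean ran from 5.03 to 5.12 in Igf1-/- lungs and from 4.90 to 5.02 in Igf1+/+ lungs. Rag1, which rearranges antigen receptor genes in thymocytes, stayed between 3.68 and 3.86 on all arrays and was among the 2 lower thymus genes. Foxn1 (0.19) and Ccl25 (0.16) separated the genotypes, and Rag2 differed by 0.12 with overlap. The 3 measured genes of group 3 innate lymphoid cells were higher, Il7r by 0.27 with an unadjusted p of 0.0194 (limma), with list means of 4.81 to 4.99 in Igf1-/- lungs and 4.61 to 4.74 in Igf1+/+ lungs. Of the 9 lung identity genes, 4 were higher and 5 lower, and Aqp5, a water channel of alveolar type I cells, fell by 0.98 (adjusted p = 0.0173). The part of these cell types in the class II difference was not tested.

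**Figure D4:**
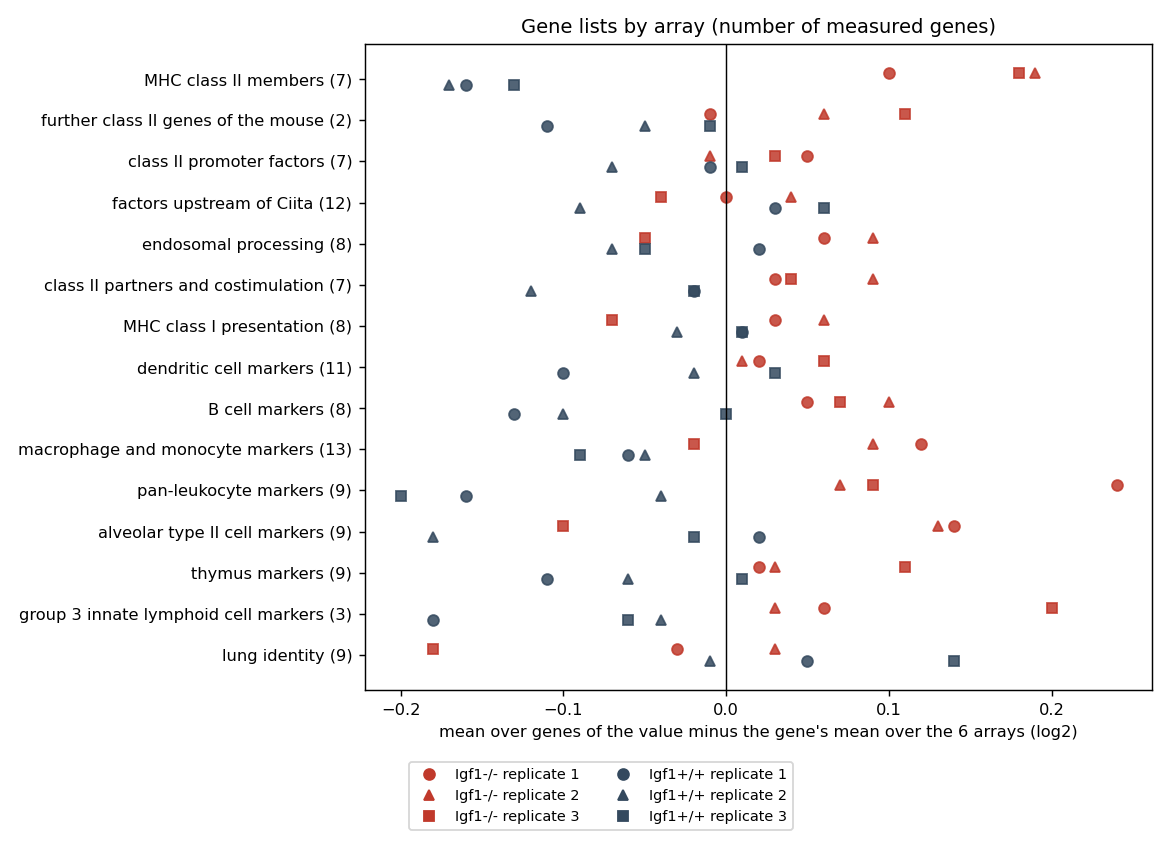
Mean over the genes of each list of the value minus that gene's mean over the 6 arrays (log2, x axis), 1 point per array, with the number of measured genes in parentheses. The class II members are the list at the top, with Igf1-/- arrays at 0.10 to 0.19 and Igf1+/+ arrays at -0.17 to -0.13, and Igf1-/- replicate 1 is the highest array for pan-leukocyte markers (0.24).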

How the data were processed

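RNA of 3 Igf1-/- and 3 Igf1+/+ lungs was hybridised to 3-prime expression arrays. The authors deposited log2 RMA values, computed over 12 arrays of which 6 were cochlear, so the background and quantile steps also used the cochlear arrays. RMA compresses low signals and equalises the array distributions. Probe sets were named from the platform annotation, in which 20380 of the 22626 mouse probe sets have 1 symbol, 691 several and 1555 none, and 64 control probe sets were left out.

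A model with genotype as its only term was fitted with limma 3.58.1 in R 4.3.3 to all probe sets, with empirical Bayes moderation and Benjamini-Hochberg adjustment. Calls used an adjusted p under 0.10, with 0.20 as a broader level. SAM, the method of the study, was not run here. The fit was tested on simulated data. Array number limits precision, and no depth applies.

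Every member was named at every probe set of its own. From the other 14 lists, genes with an adjusted p under 0.10 and up to 3 with the highest mean were named, and other genes were chosen after their values were seen. Members and lists were chosen with earlier results of these data known. Same-numbered arrays did not deviate together. Alternatives are given in the closing section.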

Additional observations from a re-analysis of the deposited data

How the results depend on the processing

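Values were recomputed under 14 alternatives, 8 with all arrays and 6 leaving out 1 array each. Of 145 differences of single class II probe sets, 127 kept their direction and their side of an adjusted p of 0.10, 14 came under it and 4 turned; no member was under it as reported, so none could lose a call. The turned values were near 0. With 1 array left out, H2-Oa ran from -0.08 to 0.04 and Ciita at 1421211_a_at from -0.05 to 0.18. H2-Oa had 0.03 without Igf1-/- replicate 2, 0.02 without Igf1+/+ replicate 2 and 0.04 without Igf1+/+ replicate 3, and Ciita at 1421211_a_at had -0.05 without Igf1-/- replicate 2.

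The count of member probe sets under an adjusted p of 0.10 was 0 as reported, 1 with dim probe sets left out, 1 with a variance trend and robust estimates, 1 with the sex block, 6 with array quality weights, and 0 to 5 when 1 array was left out (5 without Igf1+/+ replicate 3). The count under 0.20 was 5 as reported and 4 with quantile normalization of the 6 arrays. It was 1 with dim probe sets left out, when only 2 of the 11 were in the fit. With the sex block it was 3, with quality weights 8, and 0 to 8 when 1 array was left out. In these last fits it was 0 without Igf1-/- replicate 2 or 3 and 1 without Igf1+/+ replicate 1 or 2. It was 3 without Igf1-/- replicate 1 and 8 without Igf1+/+ replicate 3. The count with an unadjusted p under 0.05 and a higher mean was 8, and 2 with dim probe sets left out, the 2 that were then in the fit; it was 7 to 8 when 1 array was left out. Over all probe sets, the count under 0.10 was 126, 204 with the variance trend, 628 with quality weights, and 45 to 710 when 1 array was left out, with 710 without Igf1+/+ replicate 3. Apart from the smaller fits named here, the cause was not tested.

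The replicate number as a block gave 0, 5 and 8 member probe sets at these 3 levels, and 138 probe sets in all under 0.10. Same-numbered arrays had correlations of their deviations of -0.0393, -0.228 and -0.137, so no shared deviation by number was seen. The labels give no litter or batch, so whether the samples were paired in that way is not known. In leave-one-out fits with 2 arrays of a genotype the spread is pooled over both genotypes. Most members have signals under 6.88, the median of the mean value, where RMA differences are compressed.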
